A study of Mus musculus with 12 samples.

Results

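The genes described here are those of the interferon response and of antigen presentation, chosen by gene symbol: the H2 genes of the mouse major histocompatibility complex (MHC), B2m, Cd74, Tap1, Tap2 and the genes whose symbols begin with Tapbp, the interferon receptor subunits, Stat2 and Irf genes, and the Ifi, Ifit, Isg and Oas families, whose symbol rule also took in the Ifitm genes. They were 97 of the 19057 genes annotated on the array, carried by 166 of its 45281 probes, and no probe with more than 1 symbol was among them. Hippocampal RNA was measured on 12 MouseWG-6 v2.0 BeadChip arrays, 1 array per mouse, in 12 male C57BL/6J mice aged 12 weeks, 6 of them ethanol-exposed and 6 control. The ethanol-exposed mice were the offspring of dams that drank 10% (v/v) ethanol by choice from 0.5 to 8.5 dpc, and the dams of the controls were given water. Neither the labels nor the paper gives the litter of each mouse, so the p-values measure the spread between these mice and not between litters. The arrays lay on 2 chips, each with 3 ethanol-exposed and 3 control mice.

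Interferons are cytokines that cells release after sensing viral nucleic acid or when lymphocytes are activated. Type I interferons bind the receptor made of Ifnar1 and Ifnar2, and interferon gamma binds the one made of Ifngr1 and Ifngr2. Janus kinases at these receptors activate factors of the STAT family. A complex that holds Stat2 and Irf9 binds the interferon-stimulated response element (ISRE), and STAT dimers bind the gamma-activated sequence (GAS). The induced genes block viral entry and translation or load peptides on MHC molecules. Class I molecules, each a heavy chain with B2m, show peptides from inside the cell and are found on most cells. Class II molecules show peptides from endosomes, and in brain tissue they are known mainly from microglia, macrophages of the brain borders and infiltrating leucocytes. Their promoters carry a conserved X and Y box.

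The promoters of the members were searched for the short sequences through which the pathway is known to act. RefSeq promoters (build GRCm38.p6) were at hand for 77 of the 97 genes, and the 250 bases before each start were read on both strands, with overlapping matches allowed. The ISRE core GAAANNGAA was present in 21 of the 77 genes (27.3%) and in 7.13% of all 32851 promoters. The GAS letters TTCNNNGAA were present in 12 genes (15.6%, against 7.02% of all promoters), and the Y box CTGATTGG in 18 genes (23.4%, against 3.83%). A match is a description of the letters and not evidence of binding. The windows below show chosen genes, with the matched letters in capitals and 5′ to 3′ on the strand of the gene. The windows of Isg15 and Ifit3 hold 3 matches each and are shown as those of well known interferon-induced genes. Those of B2m, Stat2 and Irf1 are shown for the class I light chain and for the pair of factors with the smallest p among higher probes. Those of H2-Aa, H2-Eb1 and H2-D1 are shown as class II and class I promoters that hold the Y box letters. Whether the letters mark the same element in both classes was not tested.
Isg15, ISRE core, chr4:156200856-156200916, minus strand: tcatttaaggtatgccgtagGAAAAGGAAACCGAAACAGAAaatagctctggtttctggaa
Ifit3, ISRE core, chr19:34583354-34583455, plus strand: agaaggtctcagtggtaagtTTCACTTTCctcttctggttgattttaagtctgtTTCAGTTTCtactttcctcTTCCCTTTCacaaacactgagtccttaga
B2m, ISRE core, chr2:122147528-122147576, plus strand: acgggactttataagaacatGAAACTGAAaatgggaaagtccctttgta
Stat2, ISRE core, chr10:128270257-128270305, plus strand: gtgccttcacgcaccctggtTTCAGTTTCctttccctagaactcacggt
Irf1, GAS, chr11:53769904-53769952, plus strand: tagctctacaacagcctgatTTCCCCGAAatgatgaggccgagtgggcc
H2-Aa, Y box, chr17:34287847-34287894, minus strand: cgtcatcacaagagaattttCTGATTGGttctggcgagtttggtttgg
H2-Eb1, Y box, chr17:34305785-34305832, plus strand: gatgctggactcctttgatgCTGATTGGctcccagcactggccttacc
H2-D1, Y box, chr17:35263021-35263068, plus strand: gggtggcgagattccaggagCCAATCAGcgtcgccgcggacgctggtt

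The first match lay 78 bases before the start of Isg15, 155 before that of Ifit3 and 139 before that of B2m. In Stat2 it lay 221 bases before the start and in Irf1 90. The Y box letters lay 51 bases before the start of H2-Aa, 62 before that of H2-Eb1 and 53 before that of H2-D1, on the opposite strand in H2-D1.

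Most of the members were not detected on enough arrays to be tested. A probe was taken as detected on an array when its deposited detection p-value was under 0.05 (the p-value compares its signal with those of beads that match no mouse transcript), and a probe was tested when it was detected on at least 6 of the 12 arrays. By that rule 65 of the 166 member probes, for 43 of the 97 genes, were tested. Of the others, 81 probes were detected on no array and 20 on 1 to 5 arrays, and 46 of the tested probes were detected on all 12. At the level of genes, 41 were detected on no array at any probe and 13 only on 1 to 5 arrays. For a gene that was not detected, only an upper bound on its signal is known.

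The classical class I genes were all detected, and the Oas and PYHIN genes mostly were not. B2m, H2-D1 and H2-K1 were each detected on all 12 arrays by at least 1 probe. Of the 10 Oas genes, a family whose active enzymes make the messenger that activates RNase L, none was tested. Oas1a, Oas1b, Oas1d, Oas1f, Oas1h, Oas2 and Oas3 were detected on no array, and Oas1c, Oas1e and Oas1g on 1 to 5 arrays. Ifit1, Irf7, the factor that amplifies type I interferon, Irf4, Isg20, Ifi44l, Ifi27l2b, Ifit1bl2, Ifitm5, Ifitm6 and Ifnar1 were detected on no array. Irf8, a factor of microglia and dendritic cells, reached 2 ethanol-exposed and 2 control arrays at its probe ILMN_2673369. Of the 8 PYHIN genes, which encode DNA sensors and their relatives, Ifi202b, Ifi204, Ifi205, Ifi209, Ifi211 and Ifi214 were detected on no array and Ifi207 and Ifi213 were tested. Among the 26 non-classical class I genes, H2-M3, H2-Q1, H2-Q5, H2-Q7, H2-T10 and H2-T23 were tested. The 4 below the filter were H2-M10.1, H2-M10.3, H2-Q8 and H2-T24. The 16 detected on no array were H2-Bl, H2-M1, H2-M2, H2-M5, H2-M9, H2-M10.2, H2-M10.4, H2-M10.5, H2-M10.6, H2-M11, H2-Q2, H2-Q6, H2-Q10, H2-T3, H2-T18 and H2-T22. H2-Ea, which C57BL/6 mice are known not to express, and H2-Ob, a subunit of the H2-O inhibitor of peptide loading, were also detected on no array. Tap1, H2-Aa, H2-Oa, Ifi35 and Ifi47 were each below the filter.

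**Figure D1:**
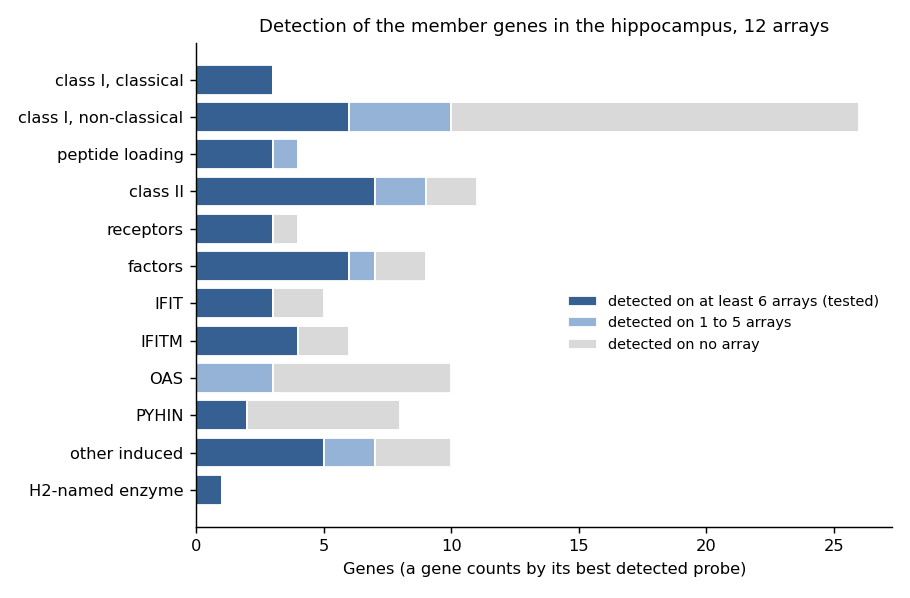
Horizontal bars give the number of member genes in each role (x axis, genes), split into genes tested, genes detected on 1 to 5 arrays and genes detected on no array of 12. The 3 classical class I genes were all tested, and none of the 10 Oas genes was.

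The number of member probes detected on an array ran from 61 to 70, and that of all probes from 18644 to 20268. Arrays of chip 1 had a median signal of 111.3 to 127.5, and those of chip 2 one of 94.7 to 102.7. All values below are log2 signals after correction for background and quantile normalization, each at the probe named, and levels are not compared between probes. A log2 fold change is the mean of the ethanol-exposed mice minus that of the controls. In bulk tissue, fewer cells of a type and less RNA per cell cannot be told apart.

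No member differed between ethanol-exposed and control mice after adjustment for all probes tested. In the limma fit, 0 of the 65 member probes and 0% of all 19288 tested probes passed an adjusted p of 0.05, and the lowest adjusted p of a member was 0.718. At an unadjusted p under 0.05 in limma, 2 member probes were higher, where 3.36% of all tested probes were, and 2 were lower, against 3.08% of all. Together these 4 were 6.15% of the members, beside 6.44% of all tested probes in either direction, so the share was near the background. With median scaling in place of quantile normalization the split over all tested probes was 147 higher and 637 lower, against 648 and 594, and that of the members 0 and 3. The groups overlapped at each of the 65 tested member probes, and did not at 0.264% of all tested probes. Among member probes below the filter, the groups did not overlap at ILMN_1250409 of Tap1, a subunit of the peptide transporter, where ethanol-exposed mice ran from 4.99 to 5.50 (median 5.05) and controls from 4.49 to 4.92 (median 4.84). It was detected on 1 array, so both ranges lie almost wholly below background and no fold change or test is given. The share of all probes below the filter whose groups did not overlap was not counted. The Tap1 values are therefore a description and not a result about that gene. Leaving out single mice moved the counts at an unadjusted p under 0.05. Those of all tested probes ran from 536 to 848 higher and from 519 to 789 lower. Among members, 4 were higher and 1 lower without ethanol-exposed mouse 2. Without ethanol-exposed mouse 3, 1 was higher and 5 lower. The lower count was 1 without ethanol-exposed mouse 4, without ethanol-exposed mouse 5 or without control 1, was 4 without ethanol-exposed mouse 6 and was 5 without control 5. Without control 2 none was higher, and without control 6, 1 was higher and 1 lower.

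The differences were small in size. The largest member difference was 0.48 on the log2 scale, and 0 member probes were past a 1.5-fold change, which 50 of all tested probes were. At 53 of the 65 member probes the 95% interval of the difference lay inside 1.5-fold in both directions. The median log2 fold change was −0.06 over the members and 0.0047 over all tested probes, with 27 member probes above 0 and 38 below (58.5% below, against 48.4% of all). On chip 2 alone the member median was 0.03. The residual spread between mice was 0.24 (median SD, log2) for member probes and 0.19 for all tested probes.

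**Figure D2:**
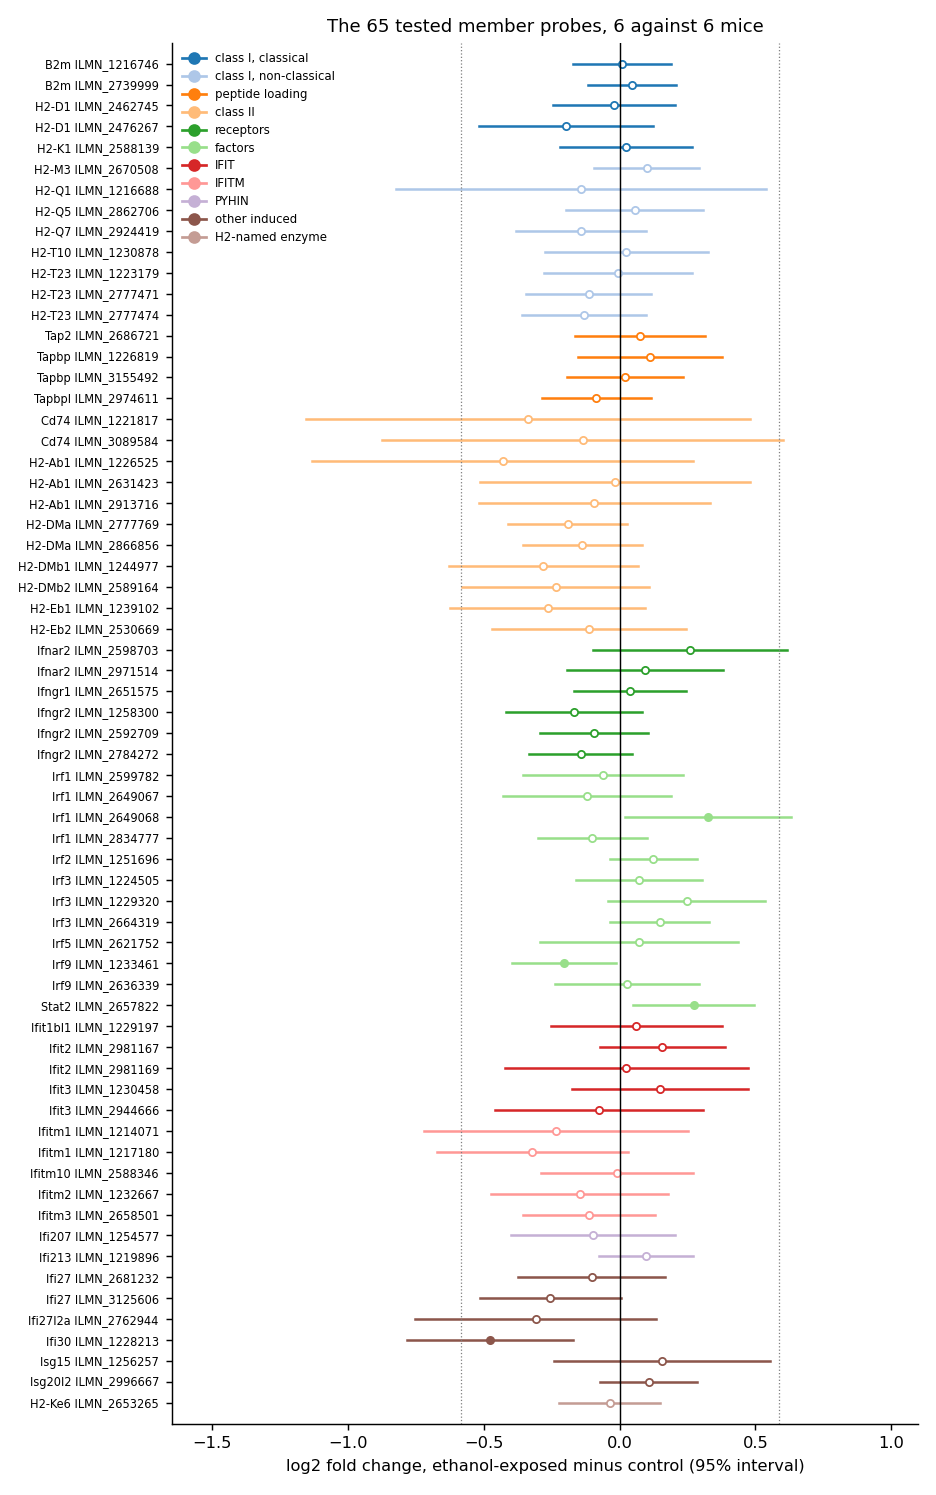
Each row is 1 of the 65 tested member probes, with its log2 fold change (ethanol-exposed minus control, x axis), its 95% interval from limma and a colour for its role. Filled points have an unadjusted p under 0.05, and dotted lines mark 1.5-fold, which no point passes. The class II points all lie left of 0, and the widest intervals are those of Cd74, H2-Ab1 and H2-Q1.

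For the class I molecule, the intervals of the difference were narrow and held 0. B2m, its light chain, ran from 11.61 to 12.06 (median 11.80) in ethanol-exposed mice and from 11.74 to 11.98 (median 11.82) in controls at ILMN_1216746. The groups overlapped over most of their range, and the log2 fold change was 0.0072 (95% interval −0.17 to 0.19). The other tested B2m probe, ILMN_2739999, had a value of 0.05 (95% interval −0.12 to 0.21). H2-K1, a classical heavy chain, lay between 6.61 and 7.15 (median 6.88) in ethanol-exposed mice and between 6.65 and 7.19 (median 6.82) in controls, with a log2 fold change of 0.02 (95% interval −0.22 to 0.27). H2-D1, the other classical heavy chain of this strain, had values of −0.02 at ILMN_2462745 and −0.20 at ILMN_2476267 (95% interval −0.52 to 0.12). Heavy chains of class I are close in sequence, and whether a probe also bound the transcript of another heavy chain was not tested. With median scaling in place of quantile normalization, the B2m and H2-K1 differences at ILMN_1216746 and ILMN_2588139 turned negative, −0.02 and −0.05, where the median of all tested probes was −0.04.

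The peptide loading genes gave 3 values above 0 and 1 below (2 and 2 with median scaling). Tap2, a subunit of the peptide transporter, lay between 7.90 and 8.54 (median 8.10) in ethanol-exposed mice and between 7.91 and 8.35 (median 7.99) in controls. Its log2 fold change was 0.07 (95% interval −0.17 to 0.31). Tapbp, which encodes tapasin, the bridge between transporter and heavy chain, had values of 0.11 at ILMN_1226819 and 0.02 at ILMN_3155492. Tapbpl, a peptide editor related to tapasin, had −0.09 at ILMN_2974611. None of these passed an unadjusted p of 0.05 in limma.

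The non-classical class I genes gave 3 probes above 0 and 5 below (2 and 6 with median scaling), with a median of −0.06. H2-T23 encodes Qa-1, a ligand of an inhibitory receptor of natural killer cells. Its 3 probes had values of −0.01, −0.11 and −0.13. H2-M3, which presents formylated peptides, had 0.10 at ILMN_2670508. H2-Q7, which encodes Qa-2, had −0.14 at ILMN_2924419. H2-Q5 had 0.06 and H2-T10 had 0.03. The 5 below 0 include H2-Q1, which was detected on chip 1 only and is described by chip further on.

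Class II and the Ifitm genes were the roles in which every one of several tested probes had a value below 0. The 11 tested class II probes stand for 7 genes read in the same mice, and are not independent of each other. The median log2 fold change was −0.19, where that of all tested probes was 0.0047, and 0 of the 11 passed an unadjusted p of 0.05 in limma. Its size depended on the background step: it was −0.11 with no background correction or in the deposited normalized table, with all 11 below 0. Only 2 of the 11 probes were detected on all 12 arrays, both below 0 (median −0.16). On chip 1 the median was −0.37 with 10 probes below 0, and on chip 2 it was −0.02 with 6 below 0. The difference between the chips was not tested. With each mouse left out in turn the median ran from −0.32 to −0.14, and 8 to 11 probes stayed below 0. The fewest below 0 came without control 6.

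Cd74, the invariant chain that guides class II to endosomes, varied more between mice than between groups. At ILMN_3089584 it ran from 5.32 to 6.43 (median 6.03) in ethanol-exposed mice and from 5.20 to 7.04 (median 6.28) in controls. The 3 highest arrays were controls 1, 3 and 6, at 6.92, 7.01 and 7.04, and the 2 lowest were controls 4 and 5, both at 5.20. At this probe the controls thus enclosed the ethanol-exposed mice. It was detected on 5 of the 6 control arrays, so the low end of the controls is near background. The log2 fold change was −0.14 (95% interval −0.88 to 0.60, unadjusted p = 0.698 in limma), and at ILMN_1221817 it was −0.34 (95% interval −1.15 to 0.48). At ILMN_1221817 controls 1, 3 and 6 were again highest, but the lowest was ethanol-exposed mouse 4, at 4.74, below every control. The residual SD of Cd74 at ILMN_1221817, 0.78, was at percentile 99.8 of all tested probes.

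H2-Ab1, the beta chain of the I-A class II molecule, was read at 3 probes. At ILMN_2631423 it ran from 5.50 to 6.29 (median 5.81) in ethanol-exposed mice and from 4.99 to 6.64 (median 5.90) in controls, with control 6 highest and control 5 lowest. Ethanol-exposed mouse 3, at 6.29, and controls 1 and 3, both at 6.19, came next below control 6. Its log2 fold change there was −0.02. The other probes gave −0.43 at ILMN_1226525 (95% interval −1.13 to 0.27) and −0.09 at ILMN_2913716. At both of these control 6 was also highest, while the lowest was ethanol-exposed mouse 2, at 4.69, and ethanol-exposed mouse 3, at 4.88. H2-Eb1, a beta chain of the I-E type, ran from 5.15 to 5.73 (median 5.57) in ethanol-exposed mice and from 5.30 to 6.28 (median 5.84) in controls. All 6 ethanol-exposed mice lay below the control median, and the 3 highest arrays were controls 3, 1 and 6, as for Cd74. Its log2 fold change was −0.27 (95% interval −0.62 to 0.09, unadjusted p = 0.136 in limma), with −0.62 on chip 1 and 0.09 on chip 2.

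The H2-DM chaperone, which exchanges the invariant chain remnant for peptide, was also below 0 at each probe. H2-DMa ran from 7.95 to 8.53 (median 8.28) in ethanol-exposed mice and from 8.29 to 8.64 (median 8.48) in controls at ILMN_2777769. Its log2 fold changes were −0.19 there (95% interval −0.41 to 0.03) and −0.14 at ILMN_2866856. H2-DMb1 had −0.28 at ILMN_1244977 and H2-DMb2 had −0.24 at ILMN_2589164, where all 6 ethanol-exposed mice lay below the control median. None of these 4 probes passed an unadjusted p of 0.05 in limma. H2-Eb2, a further class II beta chain, had −0.11 at ILMN_2530669.

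Across the 12 mice the level of Cd74 followed that of H2-Ab1. Pearson's r between ILMN_3089584 and ILMN_2631423 was 0.904 (permutation test, p = 8e-05, adjusted p = 0.00024 over the 3 pairs computed) and Spearman's rho was 0.958 (permutation test, p = 2e-05, adjusted p = 6e-05). On chip 1 r was 0.867 (permutation test, p = 0.0514) and on chip 2 it was 0.926 (permutation test, p = 0.00833), and after centring each chip and group it was 0.909. Without controls 3 and 6, the 2 arrays farthest from the median of Cd74, r was 0.874 over 10 mice. For class I the relation over the 12 mice did not pass the test. B2m and H2-K1 gave r = 0.344 (permutation test, p = 0.273, adjusted p = 0.409; rho = 0.189, p = 0.554, adjusted p = 0.764), with 0.162 on chip 1 (permutation test, p = 0.774) and 0.937 on chip 2 (permutation test, p = 0.0153), and r was 0.292 without the 2 farthest arrays. B2m and H2-D1 gave r = 0.059 (permutation test, p = 0.86, adjusted p = 0.86; rho = 0.0979, p = 0.764, adjusted p = 0.764), with 0.00733 on chip 1 and 0.41 on chip 2, and r was −0.0652 without the 2 farthest arrays. Both readings of a pair come from 1 array, so they share its scaling and depth of signal.

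**Figure D3:**
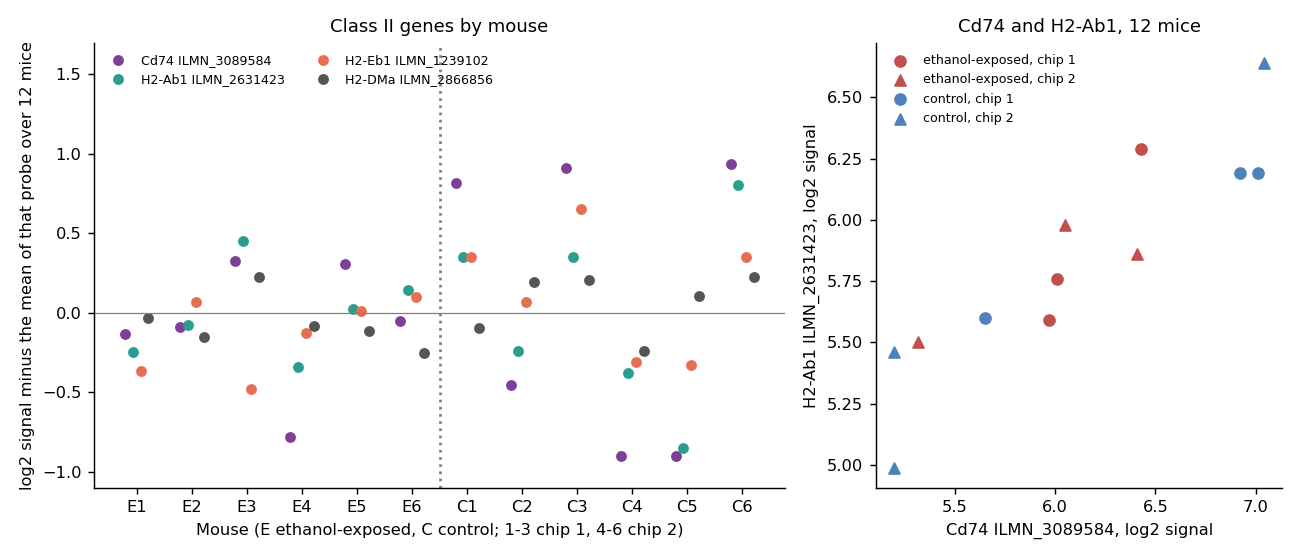
The left panel plots 4 class II probes in each mouse as the log2 signal minus that probe's mean over the 12 mice, and the right panel plots Cd74 against H2-Ab1 (log2 signals), with colour for group and symbol for chip. Controls 1, 3 and 6 lie above and controls 4 and 5 below the mean for Cd74, H2-Ab1 and H2-Eb1. The ethanol-exposed mice lie between them for Cd74 at the probe plotted, ILMN_3089584.

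Markers of cells known to carry class II were read beside these values. Of 15 microglial genes 13 were tested, with 3 above 0 and 10 below (median log2 fold change −0.10), and 2 were lower at an unadjusted p under 0.05, namely Fcrls, a microglial surface receptor gene, and C1qc, a complement subunit gene. Each listed gene was read at its brightest tested probe. Their summed linear signal ran from 6798 to 7533 in ethanol-exposed mice and from 7314 to 8807 in controls. Of the controls high for Cd74, control 6 had 8066, control 3 had 7896 and control 1 had 7314. Controls 2 and 4, which were low for Cd74, had 8807 and 8285. Of 6 border macrophage genes only Mrc1 was tested, with a value of 0.05 and a signal of 45.5 to 85.7 in ethanol-exposed mice and 41.6 to 101.2 in controls, while Cd163 and Lyve1 were detected on no array. Of 6 T cell genes only Cd3e was tested (0.25), and Cd3d, Cd3g, Cd8a and Cd4 were detected on no array. No B cell or dendritic cell gene was tested, and Cd79b, Itgax, Flt3, Xcr1 and Clec9a were detected on no array. The part of these cells in the class II values was not tested.

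Markers of the hippocampus and of tissue next to it also differed between libraries. Of 8 genes of hippocampal neurons 6 were tested, and Calb1 was detected on no array. Their summed signal was 12510 to 16750 in ethanol-exposed mice and 11580 to 16030 in controls (4 above 0, 2 below). All 6 tested choroid plexus genes of 12 listed were below 0, with a median of −0.94, and their summed signal ran from 542.6 to 27140 in ethanol-exposed mice and from 783.5 to 44360 in controls. Controls 1 and 3, both high for Cd74, had the largest sums, 44360 and 39050, while control 6, the highest for Cd74, had 2448. Of 7 ependymal genes 5 were tested (1 above 0, 4 below, 3 lower at an unadjusted p under 0.05), with sums of 762.9 to 1266 and 930.1 to 2545. Of 8 astrocyte genes all were tested (1 above, 7 below, 2 lower), with sums of 51380 to 57420 and 54560 to 59750. All 10 endothelial genes were tested (6 above, 4 below; 5367 to 6503 and 5242 to 6561), and 4 of 7 blood cell genes were, each below 0 (24060 to 36930 and 27380 to 42320). Their part in the member values was not tested.

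The interferon receptors were detected apart from Ifnar1, and none of their 6 probes passed an unadjusted p of 0.05 in limma. Ifnar2, a subunit of the type I receptor, ran from 5.56 to 6.29 (median 6.15) in ethanol-exposed mice and from 5.28 to 6.38 (median 5.79) in controls at ILMN_2598703. The difference was 0.26 on the log2 scale (95% interval −0.10 to 0.62), made up of 0.01 on chip 1 and 0.51 on chip 2, and the other probe gave 0.09. Ifngr1, the ligand-binding chain of the interferon gamma receptor, had 0.04 at ILMN_2651575 (95% interval −0.17 to 0.25), which was −0.03 with median scaling. Ifngr2, its signalling partner, was below 0 at its 3 probes, with values of −0.17, −0.09 and −0.14.

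Among the transcription factors, 3 probes of Stat2, Irf1 and Irf9 passed an unadjusted p of 0.05, and they did not point one way. Stat2, the partner of Irf9 in type I signalling, ran from 5.79 to 6.20 (median 5.97) in ethanol-exposed mice and from 5.46 to 5.93 (median 5.78) in controls at its only tested probe, ILMN_2657822. The control median was passed by all 6 ethanol-exposed mice, but controls 1, 3 and 5 lay among them. The log2 fold change was 0.27 (standard error 0.10, limma unadjusted p = 0.0206, adjusted p = 0.72, two-sided exact permutation p = 0.0325), with 0.26 on chip 1 and 0.28 on chip 2. Without control 2 or without control 6 the unadjusted p was no longer under 0.05 (at most 0.0526). The same held with no background correction (0.0749), in the deposited normalized table (0.0751), with median scaling (0.115) and on each chip alone.

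Irf9, the DNA-binding part of the same complex, pointed the other way. At ILMN_1233461 it ran from 6.36 to 6.77 (median 6.65) in ethanol-exposed mice and from 6.56 to 6.91 (median 6.85) in controls. All 6 ethanol-exposed mice lay below the control median, and control 5, at 6.56, was the only control that lay among them. The log2 fold change was −0.21 (standard error 0.09, limma unadjusted p = 0.0384, adjusted p = 0.759, two-sided exact permutation p = 0.0411), and the other Irf9 probe, ILMN_2636339, had 0.03. With single mice left out the value ran from −0.26 to −0.16, and the unadjusted p was over 0.05 in 8 of 12 such fits, those without ethanol-exposed mouse 2, 4 or 5 or without control 1, 2, 3, 4 or 6. It was also over 0.05 with an offset of 50 (0.054), with no background correction (0.0768), in the deposited normalized table (0.0761) and on each chip alone.

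Irf1, an activator of interferon gamma targets and of class I genes, differed between its own probes. At ILMN_2649068 it ran from 5.76 to 6.47 (median 5.81) in ethanol-exposed mice and from 5.25 to 6.03 (median 5.68) in controls. The difference lay on chip 1, where it was 0.67, with −0.02 on chip 2, and over both chips it was 0.33 (standard error 0.14, limma unadjusted p = 0.0382, adjusted p = 0.759, two-sided exact permutation p = 0.0693). The other probes had values of −0.06 at ILMN_2599782, −0.12 at ILMN_2649067 and −0.10 at ILMN_2834777, so the gene had no single direction. The unadjusted p at ILMN_2649068 was over 0.05 without ethanol-exposed mouse 1 or 3 or without control 1 or 2 (at most 0.0948), and also with no background correction (0.0658), in the deposited normalized table (0.0652), with median scaling (0.0859) and without moderation (0.0651).

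The remaining factors had values above 0 without passing the unadjusted p. Irf2, which competes with Irf1 for the same sites, ran from 10.78 to 11.11 (median 10.90) in ethanol-exposed mice and from 10.68 to 10.92 (median 10.76) in controls. This gave a log2 fold change of 0.12 (95% interval −0.04 to 0.28). Irf3, the factor that switches on interferon beta after nucleic acid sensing, had 0.07, 0.25 and 0.15 at its 3 probes, the largest at ILMN_1229320 (95% interval −0.04 to 0.54). Irf5, which acts downstream of Toll-like receptors, had 0.07 at ILMN_2621752.

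**Figure D4:**
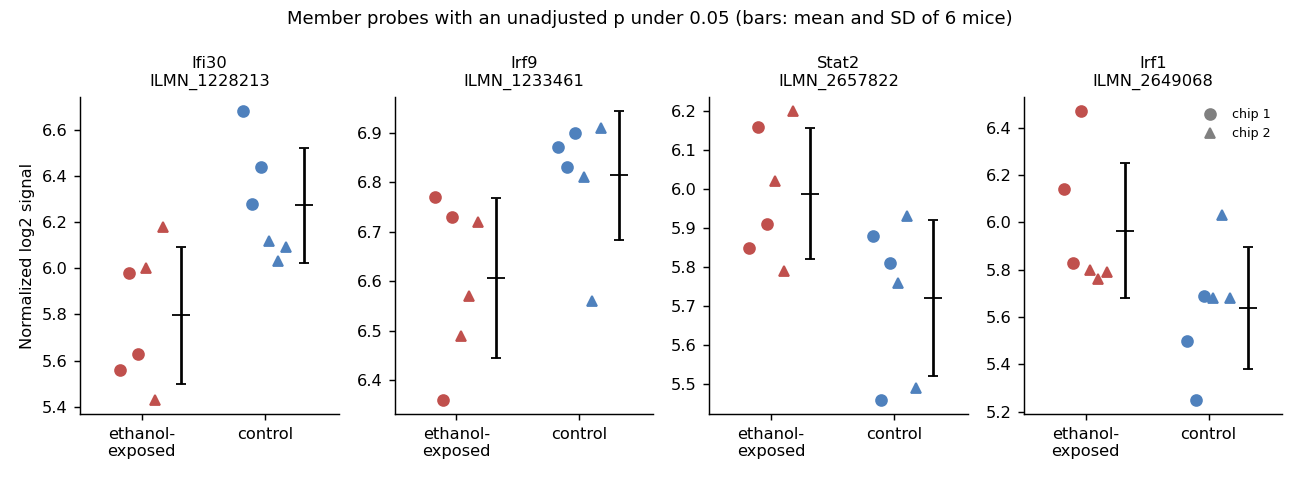
Normalized log2 signals (y axis) of the 4 member probes with an unadjusted p under 0.05 are plotted per mouse in ethanol-exposed (red) and control (blue) mice, with symbols for the chip and bars for the mean and SD of 6 mice. Stat2 and Irf1 sit higher and Ifi30 and Irf9 lower in ethanol-exposed mice, and the groups overlap in each panel.

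The member with the smallest p was Ifi30, a lysosomal thiol reductase induced by interferon gamma that unfolds antigens for loading on class II. At ILMN_1228213 it ran from 5.43 to 6.18 (median 5.81) in ethanol-exposed mice and from 6.03 to 6.68 (median 6.20) in controls. All 6 ethanol-exposed mice lay below the control median, and the overlap came from ethanol-exposed mouse 6 at 6.18, above controls 4, 5 and 6. The log2 fold change was −0.48 (standard error 0.14, limma unadjusted p = 0.00481, adjusted p = 0.718, two-sided exact permutation p = 0.0173, where the smallest possible is 0.00216). Chip 1 gave −0.74 and chip 2 gave −0.21. With single mice left out it ran from −0.55 to −0.40, with an unadjusted p of at most 0.0132. Its size depended on the background step. It was −0.31 with an offset of 50 and −0.215 with no background correction or in the deposited normalized table. The other Ifi30 probe, ILMN_2767918, was detected on 2 control arrays and 0 ethanol-exposed arrays and was not tested.

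The interferon-induced antiviral genes were read by family. The Ifit genes, which encode proteins that bind viral RNA, had 4 probes above 0 and 1 below (3 and 2 with median scaling), with a median of 0.06. Ifit3 ran from 8.10 to 8.99 (median 8.17) in ethanol-exposed mice and from 7.73 to 8.70 (median 8.55) in controls at ILMN_2944666, with a log2 fold change of −0.08. Its other probe had 0.15, so the gene had no single direction. Ifit2 had 0.16 at ILMN_2981167 and 0.02 at ILMN_2981169. Isg15, a ubiquitin-like modifier and a standard readout of type I interferon, ran from 5.81 to 6.67 (median 6.15) in ethanol-exposed mice and from 5.64 to 6.46 (median 6.10) in controls. Its log2 fold change was 0.16 (95% interval −0.24 to 0.55, unadjusted p = 0.414 in limma).

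The Ifitm genes, which encode membrane proteins that hinder the fusion of viruses with endosomes, were below 0 at all 5 tested probes, with a median of −0.15 (−0.27 on chip 1 and −0.04 on chip 2). None passed an unadjusted p of 0.05 in the fit described above. Ifitm1 ran from 8.67 to 9.31 (median 8.85) in ethanol-exposed mice and from 8.79 to 9.75 (median 9.32) in controls at ILMN_1217180. All 6 ethanol-exposed mice lay below the control median, and the log2 fold change was −0.32 (95% interval −0.67 to 0.03, unadjusted p = 0.0692 in limma, two-sided exact permutation p = 0.106). On chip 1 alone (0.0168), with median scaling (0.0223), with no background correction or in the deposited normalized table (both 0.033) and with an offset of 50 (0.0436) its unadjusted p in limma was under 0.05. Ifitm1 at ILMN_1214071 had −0.23, Ifitm2 had −0.15 and Ifitm3 had −0.11. Ifitm10 at ILMN_2588346 had only −0.0098. Its value was above 0 on chip 1 alone and ran from −0.11 to 0.05 with single mice left out. Ifitm genes are also known from blood vessels, and the values of endothelial markers given above were 6 above 0 and 4 below. The part of vessel cells in the Ifitm values was not tested.

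Of the other induced genes, Ifi27, a small membrane protein gene that is strongly induced by type I interferon in many tissues, came closest to Ifi30. At ILMN_3125606 it ran from 11.13 to 11.75 (median 11.45) in ethanol-exposed mice and from 11.43 to 11.96 (median 11.71) in controls. Its log2 fold change was −0.25 (95% interval −0.51 to 0.0033, unadjusted p = 0.0526 in limma), and the second probe had −0.10. With no background correction or in the deposited normalized table the unadjusted p of ILMN_3125606 was 0.023, and with an offset of 50 it was 0.0336. Ifi27l2a, a relative of Ifi27, had −0.31 at ILMN_2762944 (95% interval −0.75 to 0.13), where control 3 at 6.45 and control 6 at 6.07 were the highest mice, as they were among the highest for Cd74. Ifi207 had −0.10 and Ifi213 had 0.10. Isg20l2, an exonuclease named for its likeness to Isg20, had 0.11, and H2-Ke6, a steroid dehydrogenase encoded within the H2 region and no antigen presentation gene, had −0.04.

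Genes of the same pathway that the symbols did not take in were read from fixed lists. Of 29 listed signalling genes 19 were tested, with 13 above 0 and 6 below, and 1 was higher at an unadjusted p under 0.05, Ikbke, a kinase that activates Irf3 (0.29, adjusted p = 0.757 in limma). Of 42 listed induced effectors 24 were tested, with 13 above and 11 below. The only one past an unadjusted p of 0.05 was Igtp, an interferon gamma induced GTPase (0.34, unadjusted p = 0.00308, adjusted p = 0.718 in limma). Mx1, Mx2, Cxcl10 and Ccl5 were detected on no array, and neither were the ligand genes Ifnb1 and Ifng. The ligand gene Ifna1 was tested, with 0.22 at ILMN_1233604 (unadjusted p = 0.0641, adjusted p = 0.759 in limma) and 0.02 at ILMN_2858639. Of 19 listed genes of antigen processing 13 were tested, with 7 above, 6 below and none past an unadjusted p of 0.05. Ciita and Nlrc5, the master activators of class II and class I genes, were detected on no array, as were Rfx5, Erap1 and Canx. Detection on no array does not show that a gene is not expressed.

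Members grouped by promoter letters, read at the brightest tested probe of each gene, gave a description only. The 10 tested genes with an ISRE core, among them Isg15, Stat2 and B2m as printed above, had 6 values above 0 and 4 below (median 0.03). The 6 with a GAS match had 4 above and 2 below (median 0.10). The 5 with the Y box letters, H2-D1, H2-Eb1, H2-Eb2, H2-Q7 and H2-T23, had 0 above and 5 below (median −0.13). H2-Eb1 and H2-Eb2 are also counted in the class II set.

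H2-Q1 was read by chip. At ILMN_1216688 it was detected on all 6 arrays of chip 1 and on 0 of chip 2, so it entered the tested probes only through chip 1. On chip 1 it lay between 5.88 and 6.22, with a mean of 6.01. On chip 2, where it was not above background, the lowest detected signals averaged 5.20, so the level on chip 1 was at least 1.75-fold higher. It was 1 of 65 member probes, and the only one, past an adjusted p of 0.05 between chips in limma, where 0.446% of all tested probes were. Since the filter took this probe in through the chip where it was high, that call is a description. The ethanol-exposed mice of chip 1 had 5.89, 5.97 and 5.91 and the controls 6.17, 6.22 and 5.88, a log2 fold change of −0.17 on that chip, and no difference is given for chip 2.

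The fold changes of the members were also set side by side for the chips, which hold different mice. On chip 1, 45 of the 65 member probes were below 0, and on chip 2, 29 were. Stat2 and Ifi30 kept their direction on both chips. Irf1 at ILMN_2649068 and H2-Eb1 stood away from 0 on chip 1, and Ifnar2 at ILMN_2598703 on chip 2. The differences between the chips were not tested.

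**Figure D5:**
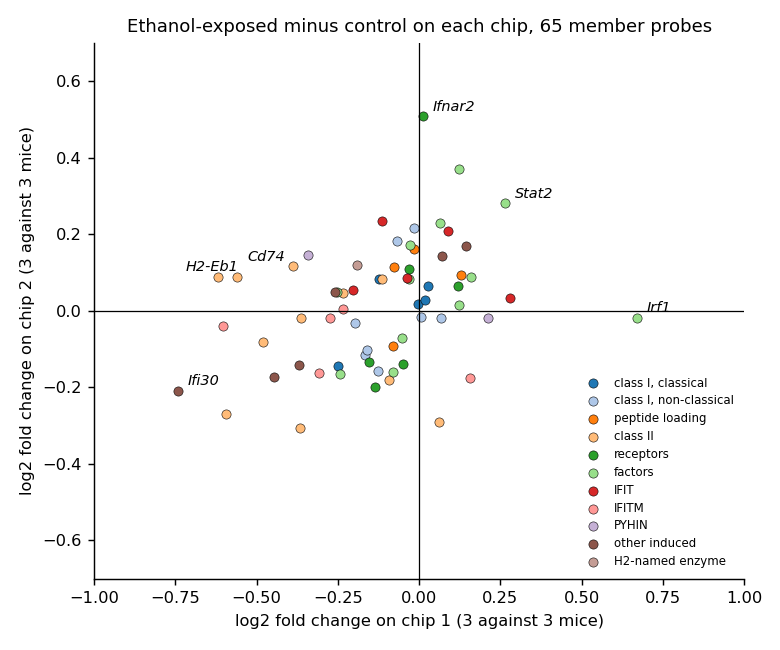
Each point is 1 of the 65 tested member probes, with its log2 fold change (ethanol-exposed minus control) on chip 1 (x axis, 3 against 3 mice) and on chip 2 (y axis, 3 against 3 other mice), coloured by role. Ifi30 is lower on both chips (−0.74 and −0.21), Stat2 higher on both (0.26 and 0.28), and most class II points lie left of 0 near the horizontal line.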

How the data were processed

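Total hippocampal RNA of 6 ethanol-exposed and 6 control mice was hybridised to Illumina MouseWG-6 v2.0 arrays, and per the submitters' processing notes the beads were summarised in GenomeStudio 1.9.0. The deposited intensity of each probe is on a linear scale, not normalized and without background subtraction, and is given with a deposited detection p-value for each array. The authors' quantile-normalized intensity was used as an alternative, and lay within 0.956% of the quantile-normalized signals. The authors compared groups in GeneSpring GX11, a step not used here. Precision is limited by the number of arrays.

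Signals were corrected with the normexp model of limma 3.58.1 in R 4.3.3 (offset 16, negative controls inferred from the detection p-values), then quantile normalized and log2 transformed. A probe entered the fit if 6 or more of the 12 arrays detected it at p under 0.05. These 19288 probes, of 10835 named genes, were fitted on group alone with empirical Bayes moderation and Benjamini-Hochberg adjustment over all of them at 0.05. Single probes were also tested by an exact permutation test over the arrays in Python 3.11.15. Correlations used 100000 permutations, at the brightest tested probe of each gene. The pairs Cd74 with H2-Aa and Irf7 with Ifit3 were left out because 1 gene of each was not tested. Some items are not reported here. The fit was tested on simulated data.

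Named genes were members with an unadjusted p under 0.05, the MHC, loading, receptor, Stat and Irf genes whatever their values, the 12 other induced members with the smallest p, and genes not detected. The members, the lists of pathway genes and cell type markers and the tests were chosen with earlier results of these data known. The cell type lists were microglia, border macrophages, T cells, B cells, dendritic cells, endothelial cells, choroid plexus, ependymal cells, astrocytes, blood cells and hippocampal neurons.

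Alternatives were the chip or the replicate number as a block, each chip alone, no background correction, an offset of 50, median scaling, the deposited normalized table, no filter, detection on all 12 arrays, no moderation and each mouse left out. The fit of chip 2 against chip 1 was added after seeing the data. Promoters came from RefSeq (GRCm38.p6), and gene symbols from the platform annotation.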

Additional observations from a re-analysis of the deposited data

Results flagged for a closer look

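In 6 of 130 groups of 6 mice examined at the tested member probes, 1 mouse lay apart from the others of its group by Dixon's criterion, and chance alone flags about 1 in 20 groups. Control 2 was highest for Tapbp at ILMN_3155492, with a log2 signal of 7.28 against 6.93 for the nearest control, and lowest for Ifit2 at ILMN_2981169, with 5.78 against 6.63. Control 5 was lowest for Irf9 at ILMN_1233461, with 6.56 against 6.81. Ethanol-exposed mouse 3 was lowest for H2-DMb2 at ILMN_2589164, with 5.04 against 5.60, and highest for Ifitm1 at ILMN_1214071, with 8.08 against 7.26. The H2-DMb2 probe was detected on 5 of the 6 ethanol-exposed arrays, so the low value is near background. Ethanol-exposed mouse 6 was highest for Ifngr2 at ILMN_2784272, with 8.86 against 8.64. No cause of these values was tested.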

How the results depend on the processing

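Under every alternative run, 0 member probes were past an adjusted p of 0.05 (limma). The numbers of member probes at an unadjusted p under 0.05, 2 higher and 2 lower, were 1 and 4 on chip 1 alone, 2 and 0 on chip 2 alone, 5 and 7 of 166 probes with no filter, and 1 higher with detection on all 12 arrays or without moderation. Among all 19288 tested probes, the mice of chip 1 gave 805 higher and 850 lower, and those of chip 2 gave 428 and 489. Dropping the filter gave 1300 higher and 1177 lower of 45281 probes. Detection on all 12 arrays gave 570 higher and 527 lower of 15924 probes, with 3 of 46 member probes lower. Fits without moderation gave 730 higher and 603 lower of 19288, with 2 member probes lower. With no background correction, with median scaling or in the deposited normalized table, no member was higher (0), where 675, 147 and 675 of all tested probes were. With single mice left out the member counts ran from 0 to 4 higher and from 1 to 5 lower. Those of all tested probes ran from 536 to 848 and from 519 to 789. The replicate number shared between groups did not pair the mice (correlations of deviations −0.0178 to 0.21). With it as a replicate block 1 member probe was higher and 5 lower, beside 701 and 686 of all tested probes. With the block, the unadjusted limma p-value of Stat2 became 0.0598, that of Ifitm1 at ILMN_1217180 became 0.0268 and that of Ifi27 at ILMN_3125606 became 0.0208, and H2-Ab1 at ILMN_1226525 also came under 0.05. The member median log2 fold change ran from −0.11 with median scaling to 0.03 on chip 2 alone. Ifi30 kept its direction in each alternative and an unadjusted p under 0.05 in each but chip 2 alone. Its log2 fold change shrank from −0.476 to −0.215 with no background correction or in the deposited normalized table. The unadjusted calls of Stat2, Irf1 at ILMN_2649068 and Irf9 at ILMN_1233461 were lost with no background correction and in the deposited normalized table. For Cd74 with H2-Ab1, r was 0.867 on chip 1, where p was 0.0514 (permutation test). For B2m with H2-K1 it was 0.937 on chip 2 (p = 0.0153, permutation test), and for B2m with H2-D1 it was −0.0652 without the 2 arrays farthest from the median.

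Members whose log2 fold change turned sign, none of them past the unadjusted p in the main setting but Irf1 at ILMN_2649068, were these. On chip 1 alone: Ifitm10 ILMN_2588346 0.157, B2m ILMN_1216746 −0.00328, H2-Eb2 ILMN_2530669 0.0625, H2-M3 ILMN_2670508 −0.017, H2-Q5 ILMN_2862706 −0.0693, H2-T23 ILMN_1223179 0.00491, Ifit2 ILMN_2981169 −0.0374, Ifngr1 ILMN_2651575 −0.0326, Irf3 ILMN_1224505 −0.0275, Irf9 ILMN_2636339 −0.0299, Ifit1bl1 ILMN_1229197 −0.113, Tap2 ILMN_2686721 −0.0155, Tapbp ILMN_3155492 −0.0765. On chip 2 alone: Ifi207 ILMN_1254577 0.145, Cd74 ILMN_3089584 0.116, Ifi27 ILMN_2681232 0.05, H2-Ab1 ILMN_2631423 0.082, H2-Ab1 ILMN_2913716 0.0465, H2-D1 ILMN_2462745 0.0838, H2-DMb2 ILMN_2589164 0.0892, H2-Eb1 ILMN_1239102 0.0882, H2-Ke6 ILMN_2653265 0.119, H2-T10 ILMN_1230878 −0.018, Ifit3 ILMN_2944666 0.053, Ifitm3 ILMN_2658501 0.00554, Irf1 ILMN_2649068 −0.018, Irf1 ILMN_2834777 0.0498, Ifi213 ILMN_1219896 −0.0199. With median scaling: B2m ILMN_1216746 −0.0249, H2-K1 ILMN_2588139 −0.0455, H2-T10 ILMN_1230878 −0.0253, Ifit2 ILMN_2981169 −0.045, Ifngr1 ILMN_2651575 −0.0254, Tapbp ILMN_3155492 −0.0473. With single mice left out the sign turned within these ranges: Ifitm10 ILMN_2588346 −0.11 to 0.0526, B2m ILMN_1216746 −0.0372 to 0.0535, Cd74 ILMN_3089584 −0.331 to 0.0376, H2-Ab1 ILMN_2631423 −0.187 to 0.141, H2-Ab1 ILMN_2913716 −0.192 to 0.042, H2-D1 ILMN_2462745 −0.0757 to 0.0525, H2-K1 ILMN_2588139 −0.0324 to 0.0917, H2-Ke6 ILMN_2653265 −0.071 to 0.0266, H2-Q1 ILMN_1216688 −0.304 to 0.00292, H2-Q5 ILMN_2862706 −0.00163 to 0.127, H2-T10 ILMN_1230878 −0.0647 to 0.0971, H2-T23 ILMN_1223179 −0.0807 to 0.0807, Ifit2 ILMN_2981169 −0.145 to 0.168, Ifngr1 ILMN_2651575 −0.0264 to 0.0814, Irf1 ILMN_2599782 −0.152 to 0.00799, Irf5 ILMN_2621752 −0.0457 to 0.169, Irf9 ILMN_2636339 −0.0355 to 0.0998, Ifit1bl1 ILMN_1229197 −0.0431 to 0.149, Tap2 ILMN_2686721 −0.00787 to 0.131, Tapbp ILMN_3155492 −0.0207 to 0.0922. The cause of these changes was not tested. Depth of signal limits the rest, since the 81 member probes detected on no array and the 20 detected on 1 to 5 arrays give no measured difference.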
